A study of Rattus norvegicus with 5 samples.

Results

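The genes described here encode proteins that bind, store and burn fatty acids: the binding proteins Fabp3, Fabp4 and Fabp5, the lipid droplet coat protein Plin2, the carnitine palmitoyltransferases Cpt1a and Cpt2, the acyl-CoA dehydrogenases Acadm and Acadl, and the nuclear receptor Ppara. They were found by matching the RefSeq accession of each array probe to its rat gene symbol, and all 9 were measured, of 15154 genes in all. Each was read by a single probe. They were chosen as a set with the contrast between 3D and 2D cultures already known, so their own ratios in that contrast are given as a description and were not tested.

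FRT cells, an epithelial line from the thyroid of the Fischer rat, were grown as follicles embedded in Matrigel (3D), a basement membrane extract, or as confluent monolayers (2D), and RNA was taken on day 5. No drug and no change to a gene is named for any of the cultures. On 4 arrays the RNA of a separate 3D culture, labelled with Cy5, was hybridized against RNA pooled from 4 2D cultures and labelled with Cy3. On a further array the dyes were exchanged, so that the 2D pool carried Cy5 and pooled 3D RNA carried Cy3. Every ratio is given as log2 of 3D over 2D, so that a value above 0 means more transcript in follicles. The 2D side of every array was the same pool, so the spread between 2D cultures was not measured, and the array with exchanged dyes held pools in place of a single culture. The labels do not say which cultures went into the 3D pool. The number of arrays limits the precision, and the signs of 4 arrays alone could not give an exact two-sided p under 0.125. Ratios over all genes correlated with r from 0.871 to 0.946 between replicate arrays and from 0.734 to 0.765 between these and the swapped array, genes not being independent replicates. RNA from bulk cultures was used, so fewer cells that express a gene and less RNA in each cell cannot be told apart. The epithelial label of the line was met by its markers, of which 8 of 8 measured were well above background, the scanner software's mark for a signal clearly brighter than the surface around the spot.

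Fatty acids are poorly soluble in water and are carried inside cells by fatty acid binding proteins. After activation to acyl-CoA by acyl-CoA synthetases, they are either esterified and kept in lipid droplets or handed to carnitine by Cpt1 enzymes, moved across the inner mitochondrial membrane, returned to CoA by Cpt2 and shortened by repeated rounds of β-oxidation. Ppara and its relatives are nuclear receptors that are activated by fatty acids and drive many genes of this route in liver, heart and fat.

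Follicles held less Fabp5 transcript and more of Cpt1a, Cpt2, Acadm and Acadl, enzymes that move fatty acids into mitochondria or begin to oxidize them. Fabp5 was 4.47-fold lower in 3D, whereas Cpt1a was 2.55-fold, Acadm 2.3-fold, Acadl 1.94-fold and Cpt2 1.64-fold higher. Plin2 was higher by only 1.29-fold. Fabp3, Fabp4 and Ppara were not well above background on any array in either condition, so no fold is given for them. Of the 9 genes, 5 were higher and 1 lower at an FDR of 0.01 in the linear model over all genes, in which 25.9% of all genes passed, 14.4% being higher and 11.5% lower. The choice of these genes used that contrast, and nothing is read from the count. The same 6 genes had 3D and 2D levels that did not overlap over the 5 arrays, as was so for 23.8% of all genes (13.2% with 3D higher and 10.7% with 3D lower). The median log2 fold change was 0.36 over the 9 genes and 0.83 over the 6 that were detected, beside 0.0032 over all genes. These values follow loess normalization, which removes a dye bias that varies with intensity. When each array was only centred on its median, 7 genes in all and 0 of the 9 passed, and the fitted values were −1.72 for Fabp5 and 0.87 to 1.88 for the other 5 detected genes. In that setting the swapped array gave −0.43 for Plin2, −0.07 for Cpt2 and 0.0009 for Acadl, but −3.59 for Fabp5, 0.74 for Cpt1a and 0.44 for Acadm, which kept their direction on every array.

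**Figure D1:**
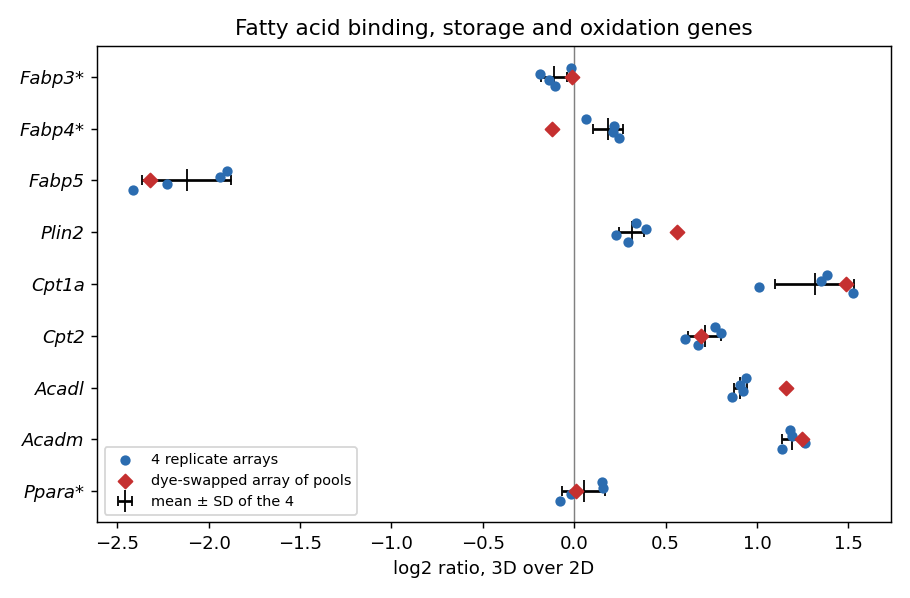
Log2 ratio of 3D over 2D on the x axis for each of the 9 genes, with blue points for the 4 replicate arrays, red diamonds for the dye-swapped array of pools, and black bars for the mean ± SD of the 4 replicate arrays. Asterisks mark the 3 genes not well above background on any array. Fabp5 lies near −2.2 and Cpt1a, Acadm, Acadl, Cpt2 and Plin2 lie above 0 on all 5 arrays.

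Among the binding proteins, Fabp5, the epidermal form that is found in many epithelia, was the one with a clear signal. Its log2 ratio was −2.41, −2.23, −1.94 and −1.90 in replicates 1 to 4 and −2.32 on the swapped array. All 5 arrays thus gave a large difference in the same direction, with replicates 3 and 4 nearer to 0 than replicates 1 and 2. The mean was −2.12 ± 0.24 (SD, n = 4), and the fit over 5 arrays gave −2.16 with a standard error of 0.08. Only 5 of the 15154 genes had a lower fitted ratio. The normalized log2 intensity of Fabp5 was 13.08, 13.19, 13.54 and 13.54 in the 4 3D cultures and 13.02 in the 3D pool, below each of them. In the 2D pool it was 15.34 to 15.49 over the 5 arrays, so the spread in the ratio came with the 3D side. The raw 2D signal, from 25895 to 78757.5 units before background correction, stood above a local background of 19.5 to 55.5 units, and no spot was saturated. Both spots of the probe agreed within 0.0875 log2 units on every array.

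Fabp4, the form of adipocytes and macrophages, gave log2 ratios of 0.25, 0.21, 0.22 and 0.07 in replicates 1 to 4 and −0.12 on the swapped array. Fabp3, the form of heart and skeletal muscle, gave −0.10, −0.14, −0.19 and −0.02, with −0.01 on the swapped array. Their raw signals, at most 66.2 and 62.5 units, were close to the local background, and the levels of 3D and 2D overlapped for both genes. The rest of the family was no different in this respect. Of 10 family genes measured, including Fabp1, Fabp2, Fabp6, Fabp7, Fabp9, Fabp12 and Pmp2, Fabp5 was the 1 gene well above background in any channel. In the rat gene table of the RefSeq assembly GRCr8, 5 of these genes follow each other with no other protein-coding gene between them, in the order Fabp12, Fabp4, Fabp9, Pmp2 and Fabp5. The table also lists pseudogenes of Fabp5, and whether its probe reads them was not tested.

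By the root mean square difference over the 5 arrays, the genes most like Fabp5 among 8473 genes well above background in both conditions were Ifi27l2b (0.18), Mthfd2 (0.28), Lmo1 (0.29), Rsad2 (0.32) and Ppp1r15a (0.35), all in log2 units. Their fitted ratios were −2.23, −1.97, −2.26, −2.00 and −1.87. Ifi27l2b and Rsad2 are interferon-stimulated genes, Mthfd2 is an enzyme of mitochondrial folate metabolism, Lmo1 a transcription cofactor and Ppp1r15a a regulatory subunit of a phosphatase that acts on a translation initiation factor. None of these is an enzyme of fatty acid oxidation, and the likeness is one of size and sign only.

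Plin2 coats lipid droplets in most cell types and is commonly used as a sign of stored neutral lipid. Its log2 ratio was 0.30, 0.23, 0.39 and 0.34 in replicates 1 to 4 and 0.56 on the swapped array. All were above 0, and the swapped array was the highest. The mean was 0.31 ± 0.07 (SD, n = 4) and the fitted value 0.36 with a standard error of 0.05. The normalized log2 intensity lay between 12.3 and 12.44 in 3D and between 11.88 and 12.08 in 2D, without overlap.

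Cpt1a, the form of carnitine palmitoyltransferase I that predominates in liver, sits in the outer mitochondrial membrane and catalyses the step that commits a long-chain fatty acid to oxidation. It is inhibited by malonyl-CoA, the product of acetyl-CoA carboxylase. Its log2 ratio was 1.52, 1.01, 1.35 and 1.38 in replicates 1 to 4 and 1.49 on the swapped array. Replicate 2 was lower than the others, and the mean was 1.32 ± 0.22 (SD, n = 4). The fitted value was 1.35 with a standard error of 0.07, the 84th highest of all genes. The normalized log2 intensity was 10.91, 10.28, 10.67 and 10.69 in the 3D cultures, with the 3D pool inside that range, beside 9.22 to 9.38 in the 2D pool. The SD of the 10 spots of its probe was at most 0.13 on any array, which was less than the distance of replicate 2 from the other replicates.

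Cpt2, which transfers the acyl group back to CoA on the inner side, gave log2 ratios of 0.68, 0.60, 0.80 and 0.77, and 0.69 on the swapped array. They lay closer together than those of Cpt1a, and the 10 spots of the probe spanned up to 0.27 on a single array. The mean was 0.71 ± 0.09 (SD, n = 4). Its normalized log2 intensity was 10.49 to 10.73 in 3D and 9.82 to 9.92 in 2D. Cpt1a thus differed more between the conditions than Cpt2 on every array, by a fitted 1.35 against 0.71, a comparison that was not tested because the genes were chosen on these values.

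Acadm and Acadl catalyse the first oxidation of medium-chain and long-chain acyl-CoA in the mitochondrial matrix. The log2 ratio of Acadm was 1.13, 1.26, 1.19 and 1.18 in replicates 1 to 4 and 1.24 on the swapped array. It was among the steadiest of the 9 genes, with a mean of 1.19 ± 0.05 (SD, n = 4) and a fitted value of 1.20 with a standard error of 0.04. Acadl gave 0.86, 0.93, 0.91 and 0.94, with a mean of 0.91 ± 0.04 (SD, n = 4), and 1.16 on the swapped array, where it was higher than in any replicate. The normalized log2 intensity of Acadm was 11.01 to 11.25 in 3D and 9.87 to 10.01 in 2D, and that of Acadl was 13.76 to 13.98 and 12.81 to 12.91. Neither gene overlapped between the conditions.

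**Figure D2:**
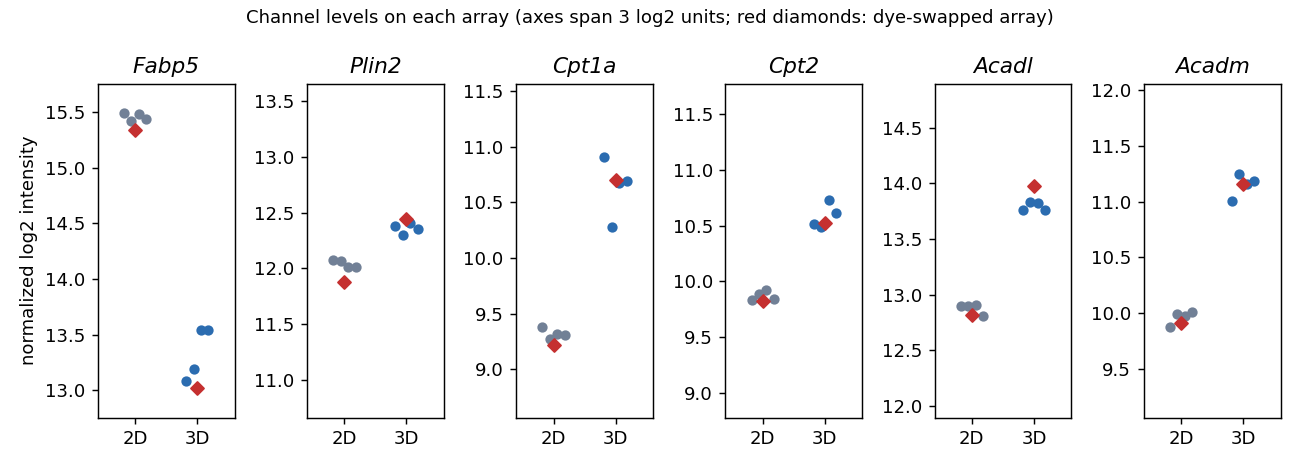
Normalized log2 intensity of the 3D and the 2D channel on each of the 5 arrays for the 6 detected genes, each on its own axis of 3 log2 units, with circles for the 4 replicate arrays and red diamonds for the dye-swapped array. The 2D points repeat 1 pool and lie close together, while the 3D points of Fabp5 and Cpt1a are more spread. No gene has overlapping conditions, and levels are not to be compared between genes.

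Ppara, the receptor that in rodent liver drives Cpt1a, Acadm and other genes of this route, gave log2 ratios of −0.08, −0.02, 0.15 and 0.15, and 0.01 on the swapped array. Its raw signal was 34 to 85.5 units against a local background of 19 to 55 units, and it was not well above background on any array. No direction can be given for it. The other 2 receptors of the family were detected. Pparg, best known from adipocytes, rose in follicles, with a fitted ratio of 0.45 (limma adjusted p = 0.000207) and 0.32, 0.64, 0.48 and 0.54 in replicates 1 to 4 and 0.28 on the swapped array. Ppard, which is found in most tissues, was above background on 4 arrays in 3D and on 3 in 2D, and its fitted ratio of −0.09 did not pass (limma adjusted p = 0.416). With a term for the dye it was −0.21 and passed (limma adjusted p = 0.00875). The swapped array gave −0.42 for Ppard, against −0.10 to 0.12 on the replicate arrays. A dimmer probe of Ppard, above background on 3 arrays in 3D and on 2 in 2D, averaged −0.04.

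The upstream sequences of the higher genes that had an entry are shown so that the promoters of genes of the same route can be set beside each other. RefSeq windows of 250 bases that end just before the transcript start, on the assembly GRCr8, were matched by symbol for 6 of the 9 genes. Fabp4, Fabp5 and Acadl had no entry. The GC box, searched as GGGCGG on both strands, is given in capitals, and so is the nuclear receptor half-site, searched as AGGTCA on both strands. Each is written 5′ to 3′ in the direction of the gene. The first 4 belong to genes of the set, with Plin2 given at the first of its 2 annotated starts, and Acadvl, the very long-chain acyl-CoA dehydrogenase, is added because it holds the half-site.
Plin2, chr5:106229019-106229268, minus strand: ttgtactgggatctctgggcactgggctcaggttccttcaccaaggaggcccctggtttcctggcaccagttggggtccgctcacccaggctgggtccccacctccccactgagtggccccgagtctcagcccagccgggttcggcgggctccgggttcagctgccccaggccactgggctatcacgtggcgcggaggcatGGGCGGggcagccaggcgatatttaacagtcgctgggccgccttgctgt
Cpt1a, chr1:209995910-209996159, plus strand: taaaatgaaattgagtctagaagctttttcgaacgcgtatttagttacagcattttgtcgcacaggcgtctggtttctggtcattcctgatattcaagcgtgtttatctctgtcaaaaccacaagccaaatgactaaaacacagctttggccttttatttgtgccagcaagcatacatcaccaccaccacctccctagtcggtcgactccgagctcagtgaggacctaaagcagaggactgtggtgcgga
Cpt2, chr5:127910819-127911068, minus strand: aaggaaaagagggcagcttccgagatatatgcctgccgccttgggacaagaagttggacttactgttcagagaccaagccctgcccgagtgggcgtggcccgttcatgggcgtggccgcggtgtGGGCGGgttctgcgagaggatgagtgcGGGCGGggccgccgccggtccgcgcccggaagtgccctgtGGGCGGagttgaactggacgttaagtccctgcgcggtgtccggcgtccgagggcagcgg
Acadm, chr2:245542865-245543114, minus strand: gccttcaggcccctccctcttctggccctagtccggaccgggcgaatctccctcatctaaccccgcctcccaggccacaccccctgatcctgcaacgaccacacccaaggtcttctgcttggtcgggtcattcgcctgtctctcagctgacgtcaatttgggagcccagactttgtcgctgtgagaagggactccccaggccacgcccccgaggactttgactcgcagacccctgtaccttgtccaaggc
Acadvl, chr10:55236706-55236955, minus strand: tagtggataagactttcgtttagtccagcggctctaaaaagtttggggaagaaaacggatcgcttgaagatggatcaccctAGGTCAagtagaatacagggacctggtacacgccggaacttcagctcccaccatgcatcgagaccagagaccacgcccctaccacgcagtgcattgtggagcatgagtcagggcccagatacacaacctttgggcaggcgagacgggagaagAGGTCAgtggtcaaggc

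Cpt2 held 3 GC boxes, Plin2 held 1 at the start shown and none at its other start, and Cpt1a and Acadm held none. Over the 6 genes with a window, 3 held a GC box and 0 a half-site, while 30.5% and 14.1% of 33469 RefSeq windows of the same length held them. Of 16 genes of mitochondrial β-oxidation outside the set that had a window, 12 held a GC box and 4 a half-site. A gene was counted if any of its windows matched, so these counts and the shares of single windows are in unlike units. A direct repeat of AGGNCA with any 1 base between its copies, the type of element that receptors of the PPAR family bind as a pair with a retinoid X receptor, was in 0 of the windows of either group and in 0.368% of all windows. Repeats that miss this pattern by a letter were not counted, such as AGGTCAgtggtca in the window of Acadvl. A match is a description of letters, and its absence concerns only this window and these exact letters.

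The other genes of fatty acid handling were taken from lists written from general knowledge, with 106 of 116 genes measured and 74 of these well above background. In limma over all genes, 32 rose in 3D, 13 fell and 61 did not pass at an FDR of 0.01, and with arrays only centred on their median 0 passed. Over all genes 14.4% rose and 11.5% fell, or 24.9% and 20.3% of those well above background in both conditions. A list gene counted as well above background if marked on any array in either condition. For the shares, a gene had to be marked on any array in each condition. The count of each list below is to be read beside these shares, and no list was tested against them. These genes are outside the set, and their values were tested, but the lists were written with earlier results of these data known.

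Mitochondrial β-oxidation was the list with the most calls, as 15 of its 17 measured genes rose and 0 fell, with a median log2 fold change of 0.51. All 17 were well above background, and among all genes well above background in both conditions 45.3% passed, 24.9% being higher and 20.3% lower. Acaa2, the thiolase of the matrix, rose by 1.25 (limma adjusted p = 3.18e-07), with 1.43, 1.07, 1.20 and 1.17 in replicates 1 to 4 and 1.36 on the swapped array. Hadh, which oxidizes short and medium-chain hydroxyacyl-CoA, rose by 1.25 (limma adjusted p = 1.36e-07), and Acadvl, which acts on very long chains, by 1.14 (limma adjusted p = 1.38e-07). Acadvl lay between 1.06 and 1.23 over the replicates and at 1.04 on the swapped array. The list therefore held genes that differed as much as Acadm and Acadl. The remaining genes of this list are named after their values were seen. Decr1, needed for unsaturated fatty acids, rose by 1.13 (limma adjusted p = 2.17e-07), Acads, the short-chain dehydrogenase, by 0.69 (limma adjusted p = 2.34e-05), and Echs1, the short-chain hydratase, by 0.51 (limma adjusted p = 1.87e-05). The flavoproteins that pass electrons from the dehydrogenases to the respiratory chain rose less, with 0.23 for Etfa, 0.30 for Etfb and 0.35 for Etfdh.

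**Figure D3:**
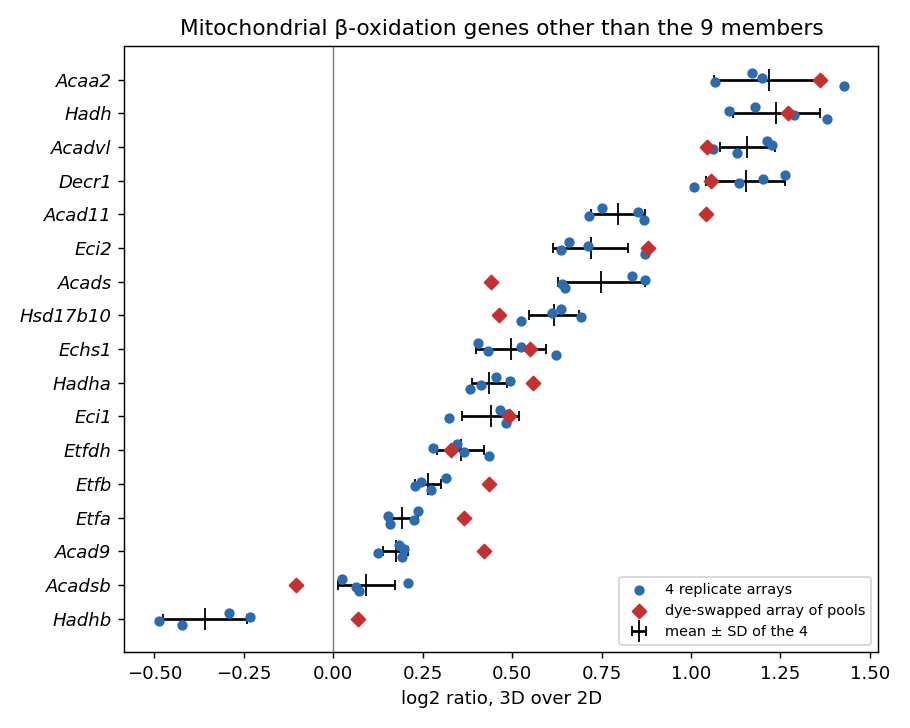
Log2 ratio of 3D over 2D on the x axis for the 17 measured genes of mitochondrial β-oxidation outside the set, in order of their fitted value, with blue points for the 4 replicate arrays, red diamonds for the dye-swapped array and black bars for the mean ± SD of the 4. The first 15 genes lie above 0 on all 5 arrays, Acadsb lies on both sides of 0, and Hadhb is below 0 in every replicate and at 0.07 on the swapped array.

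Acadsb and Hadhb were the genes of that list that did not pass. Hadhb encodes the β subunit of the mitochondrial trifunctional protein, and its log2 ratio was −0.42, −0.49, −0.23 and −0.29 in replicates 1 to 4 and 0.07 on the swapped array (fitted −0.27, limma adjusted p = 0.017). Hadha encodes the α subunit of the same complex and rose by 0.46 (limma adjusted p = 2.21e-05), with 0.38, 0.41, 0.49 and 0.46 in replicates 1 to 4 and 0.56 on the swapped array. A further probe of Hadha gave a mean of 0.47 over the 5 arrays. The subunits of 1 complex thus lay on opposite sides of 0 on the 4 replicate arrays but not on the swapped array, and their difference was not tested. Without the swapped array Hadhb passed, as the 1 gene of the list that fell. The genes lie head to head in the RefSeq table, with 300 bases between their transcript starts and 200 bases shared by their upstream windows. The window of Hadha is shown because it holds this shared stretch, with the GC box, read on the opposite strand as CCGCCC, in capitals.
Hadha, chr6:31907551-31907800, plus strand: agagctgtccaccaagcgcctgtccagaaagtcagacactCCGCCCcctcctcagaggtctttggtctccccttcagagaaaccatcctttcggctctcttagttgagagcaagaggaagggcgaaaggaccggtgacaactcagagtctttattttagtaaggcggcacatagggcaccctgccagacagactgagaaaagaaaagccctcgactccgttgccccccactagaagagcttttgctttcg

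In the carnitine shuttle, 2 of 6 measured genes rose and 0 fell. Crot, the peroxisomal carnitine octanoyltransferase, rose by 1.01 (limma adjusted p = 1.3e-07) and was between 0.99 and 1.06 in every replicate. Crat, the carnitine acetyltransferase, gave 0.29, 0.42, 0.55 and 0.53 on the replicate arrays but 0.04 on the swapped array (fitted 0.36, limma adjusted p = 0.00294). Its call was lost without replicate 2, 3 or 4, at fitted values of 0.35, 0.32 and 0.32 (limma adjusted p = 0.016, 0.0158 and 0.0163), and also at a normexp offset of 0 (limma adjusted p = 0.0365) and with the scanner software's ratios (limma adjusted p = 0.0415). Slc25a20, the carnitine carrier of the inner membrane that works between Cpt1a and Cpt2, did not pass, with a fitted 0.19 (limma adjusted p = 0.016). Cpt1b and Cpt1c, the other Cpt1 forms, were well above background on all 5 arrays in both conditions at the probe used for each, and did not pass. Their fitted values were 0.14 (limma adjusted p = 0.146) and −0.02 (limma adjusted p = 0.854). A dimmer probe of Cpt1b was not well above background on any array and averaged 0.04. Slc25a20, Cpt1b and Cpt1c were singled out after their values were seen.

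Of the 13 measured genes of peroxisomal β-oxidation, 10 were well above background, 5 rose and 1 fell. Hsd17b4, the multifunctional enzyme of that route, rose by 1.09 (limma adjusted p = 9.47e-08), Scp2, which holds a thiolase and a lipid transfer domain, by 0.85 (limma adjusted p = 1.49e-06), and Abcd3, a transporter of the peroxisomal membrane, by 0.62 (limma adjusted p = 0.00016). Abcd3 was 0.41 to 0.63 over the replicates and 1.00 on the swapped array. Pex11a, a factor of peroxisome division, fell by 0.18 (limma adjusted p = 0.0081), but was 0.25 with arrays only centred on their median and did not pass without any 1 of the 4 replicates, at −0.18 to −0.16 (limma adjusted p = 0.0281 to 0.0417).

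Of 23 measured genes of uptake, binding and activation, only 10 were well above background. Of the 23, 1 rose, 5 fell and 17 did not pass, with a median log2 fold change of −0.03. That median includes the genes near background, and no difference from other lists was tested. The acyl-CoA synthetases Acsl1 and Acsl4 fell by 1.08 (limma adjusted p = 1.18e-06) and 1.07 (limma adjusted p = 1.31e-07). Acsl1 was −1.24, −1.03, −1.20 and −1.11 in replicates 1 to 4 and −0.82 on the swapped array. Of 5 measured Acsl genes 3 fell, Acsl3 being the third with −0.73, and Acsl5 did not pass, with 0.04 (limma adjusted p = 0.741). Dbi, the acyl-CoA binding protein, fell by 1.05 (limma adjusted p = 1.8e-07), so that transcripts of a carrier of acyl-CoA and of a carrier of free fatty acids, Fabp5, were both lower. Acsl3, Acsl5 and Dbi were picked out after their values were seen. The gene that rose was Slc27a1, a fatty acid transport protein of the membrane, with 0.33 (limma adjusted p = 0.000218). Cd36, the best known fatty acid translocase, was not well above background on any array.

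Of 18 measured genes of lipid droplets and triglyceride, 3 rose, 2 fell and 13 did not pass, with a median log2 fold change of −0.03. These counts lie near the shares over all genes, 14.4% higher and 11.5% lower. Of the 18 genes, 13 were well above background. Lpin2, a phosphatidate phosphatase, rose by 0.62 (limma adjusted p = 2.57e-05), and Dgat1, which completes triglyceride, by 0.61 (limma adjusted p = 0.000131). Dgat1 was 0.28 in replicate 1 and 0.69 to 0.80 in replicates 2 to 4. G0s2, an inhibitor of the lipase Pnpla2, rose by 0.45 (limma adjusted p = 0.000371). Abhd5, the activator of the same lipase, fell by 0.83 (limma adjusted p = 1.58e-06), and Mgll, which cleaves monoglyceride, by 0.37 (limma adjusted p = 0.00029), or 0.07 higher with arrays only centred on their median. Transcripts of an inhibitor and of an activator of Pnpla2 thus moved in opposite directions, and triglyceride breakdown itself was not measured. G0s2 lost its call at an offset of 0 (limma adjusted p = 0.0161) and with the scanner software's ratios (limma adjusted p = 0.0164). Pnpla2 itself gave 0.06 and did not pass (limma adjusted p = 0.494), a gene chosen after its value was seen. Plin1, Plin3 and Plin4 had no probe paired with their symbol.

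**Figure D4:**
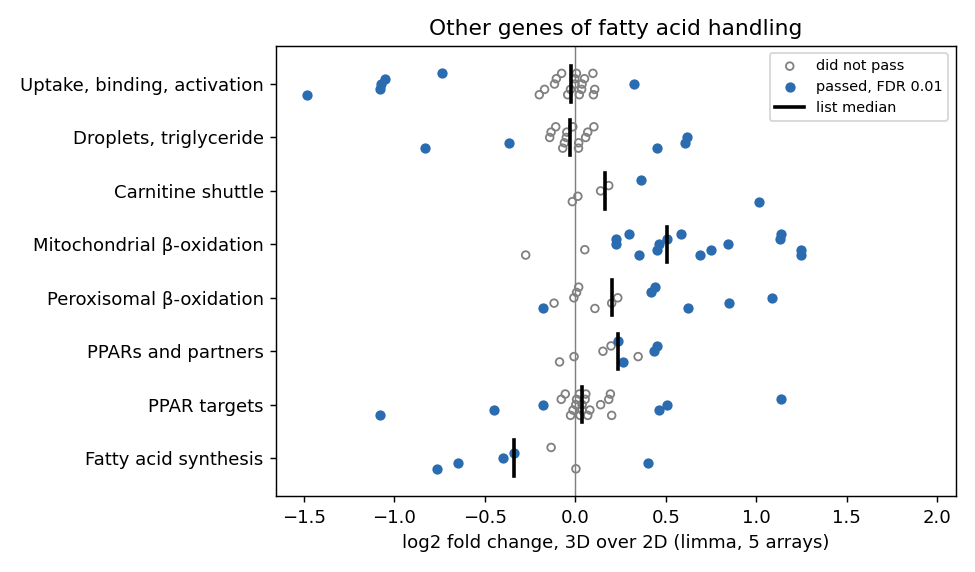
Fitted log2 fold change of 3D over 2D on the x axis for each measured gene of 8 lists of fatty acid handling, the set itself left out, with filled blue points for genes that passed an FDR of 0.01, open points for those that did not, and a black line at the median of each list. Some genes are in more than 1 list. Mitochondrial β-oxidation has 15 filled points above 0 and none below, whereas the list of fatty acid synthesis has 4 below and 1 above. The point above is Mlycd, which degrades malonyl-CoA.

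Among 9 measured receptors, partners and coactivators of the PPAR family, 4 rose and 0 fell. Besides Pparg, the retinoid X receptor Rxrb rose by 0.26 (limma adjusted p = 0.00279) and Esrra, a receptor that drives mitochondrial genes and that was named after its value was seen, by 0.24 (limma adjusted p = 0.00594). Rxrb lost its call without replicate 1, 3 or 4, at 0.23, 0.26 and 0.24 (limma adjusted p = 0.0134, 0.0145 and 0.0171), and also at an offset of 0 (limma adjusted p = 0.0281) and with a dye term (limma adjusted p = 0.0115). Of 24 other genes known as PPAR targets, 3 rose, 3 fell and 18 did not pass, with a median log2 fold change of 0.04. Such counts lie near the shares over all genes, 14.4% higher and 11.5% lower. Only 12 of the 24 targets were well above background. Those that rose were Acadvl, Hadha and Ucp2, an uncoupling protein, with 0.51 (limma adjusted p = 0.000191). Those that fell were Acsl1, Pex11a and Creb3l3, a transcription factor of liver and gut, which fell by 0.45 (limma adjusted p = 0.00116). Targets well known from fasted rodent liver, Pdk4, Fgf21 and Cyp4a1, were not well above background on any array. They were picked out after their values were seen.

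The list of fatty acid synthesis, the opposing route, had 4 lower and 1 higher of 7 measured genes and a median log2 fold change of −0.34. The higher gene was Mlycd, which degrades malonyl-CoA and is not an enzyme of synthesis. Fasn, the fatty acid synthase, fell by 0.76 (limma adjusted p = 3.15e-06), with −0.59, −0.70, −0.82 and −0.89 on the replicate arrays. Elovl6, an elongase, fell by 0.65 (limma adjusted p = 0.000171), although its value was −1.08 on the swapped array against −0.60 to −0.50 on the replicates and a dimmer probe averaged −0.17. Acly, which supplies acetyl-CoA, fell by 0.40 (limma adjusted p = 8.21e-05), or was 0.08 higher with arrays only centred on their median. Acaca, an acetyl-CoA carboxylase whose product inhibits Cpt1a, fell by 0.34 (limma adjusted p = 0.000297), while Acacb, the other carboxylase, gave −0.13 and did not pass (limma adjusted p = 0.0436). Both were named after their values were seen. Mlycd rose by 0.40 (limma adjusted p = 4.37e-05).

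Markers of other cells in which these genes are known to be abundant were read from lists of the same kind. Of adipocyte markers, 1 of 8 measured was well above background (Adipoq, at 0.05, which did not pass, limma adjusted p = 0.521) and 0 passed. Of macrophage markers 3 of 7 were well above background on at least 1 array, with Cd14 on all 5 in both conditions, and of endothelial markers 1 of 5, and 0 passed in either list. Of fibroblast markers 4 of 7 were above background, with Col1a1, Col3a1 and Pdgfra on all 5 arrays in both conditions, and 1 passed, Pdgfra, which was higher by 0.55. A dimmer probe of Col1a1 was not well above background on any array. The mean normalized log2 intensity was 6.11 to 6.17 in 3D and 6.1 to 6.14 in 2D for the adipocyte list, 6.5 to 6.64 and 6.56 to 6.6 for the macrophage list, 6.02 to 6.09 in both conditions for the endothelial list, and 6.47 to 6.65 and 6.39 to 6.47 for the fibroblast list. The part of these cells in the results was not tested. Of the 8 epithelial markers, 4 rose and 1 fell.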

How the data were processed

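The authors' spot signals are deposited as intensity values, given per spot as the median over pixels, with the local background beside it, from Agilent Feature Extraction 10.7.3.1 and not normalized. The deposited scanner files also hold log10 ratios of Cy5 over Cy3 made by that software. The authors' value table holds log2 ratios that, per the methods, they made in limma with normexp, loess and quantile steps. It correlated with the values used here with r from 0.995 to 0.998 and had column medians from −0.0064 to 0.0011. Values here were computed from the spot signals in R 4.3.3 with limma 3.58.1, by normexp with an offset of 50, loess with control spots at weight 0, and quantiles of the average intensity. The offset compresses the ratios of dim genes. Spots marked as outliers, 1.12% to 1.6% of 58717 per array, were left out, and 0 spots were saturated. Spots of a probe were averaged, and each gene took the value of its brightest probe. Symbols came from a RefSeq table of the assembly GRCr8, matched by accession without its version, for 17998 of 30367 probes. The arrays were designed on an earlier build, so no gene coordinates are given apart from those of the RefSeq promoter windows. Genes of a list whose symbol had no matched probe were left out.

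A linear model with 1 coefficient was fitted in limma over the 5 arrays, with the sign of the swapped array turned, and adjusted by Benjamini-Hochberg over 15154 genes, with 0.01 as the FDR and 5.12 prior degrees of freedom. The fit was tested on simulated data. The set of 9 genes and the lists were chosen with earlier results of these data known. Named genes were, in each list, up to 3 that rose and up to 3 that fell with the largest change among those past the threshold whose brighter channel was well above background, or the single most changed gene where none passed, with Pparg and Ppard always named and the 5 genes most like the set's largest change. A few genes picked by it are not reported here. Alternatives were an offset of 0, the scanner software's log10 ratios, median centring, the authors' value table, a dye term, no swapped array, no dim probes, the mean of all probes, each replicate left out, an FDR of 0.05, and outlier spots kept, the last chosen after the files were seen.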

Additional observations from a re-analysis of the deposited data

How the results depend on the processing

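The test holds no spread between 2D cultures, counts a pool of 3D cultures as a further array, and cannot separate a dye effect from other features of the swapped array. No paired analysis was possible because the 2D cultures were pooled and only the 3D samples carry replicate numbers. Genes near background, Fabp3, Fabp4 and Ppara among them, have ratios set largely by the background correction, as Fabp4 was 0.12 in the fit but 0.90 at an offset of 0 and 0 in the scanner software's ratios.

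Of all genes 3918 passed, against 2222 at an offset of 0, 7 with median centring in place of loess, and 3006 to 3308 with 1 replicate left out. Of the genes past the threshold 55.6% were higher in 3D in the fit, and 49.2% in the fit to the authors' values. Under median centring 0 of the 9 genes passed in either direction, and 0 of the other genes of the pathway rose or fell, including 0 of those of mitochondrial β-oxidation, while Mgll was 0.0717, Pex11a 0.2456 and Acly 0.0843, with signs opposite to the fit. Of 28 named genes that had passed, 25 kept their sign in that setting, 18 with a larger and 7 with a smaller change, as Acaa2 was 1.77, Hadh 1.78 and Acadvl 1.67. The cause was not tested. With 1 replicate left out, 5 of the 9 genes were higher and 1 lower each time, 28 to 30 other genes of the pathway rose and 12 fell, and 13 to 14 genes of mitochondrial β-oxidation rose. At an offset of 0 Plin2 did not pass, which left 4 of the 9 higher, and 24 other genes of the pathway rose, 12 of them in mitochondrial β-oxidation. Without the swapped array Fabp4, which lies at background, also passed, which gave 6 higher, and 37 other genes rose and 16 fell. In that list 1 gene fell without the swapped array and 1 at an FDR of 0.05. The median over the 9 genes, 0.36 in the fit, was 0.73 at an offset of 0, 0.87 with median centring, 0.44 with a dye term, 0.83 with dim probes removed, where 6 genes remain, and 0.36 to 0.40 with 1 replicate left out. G0s2 lost its call at an offset of 0 (limma adjusted p = 0.0161) and with the scanner software's ratios (limma adjusted p = 0.0164), and Slc27a1 (limma adjusted p = 0.0115) and Creb3l3 (limma adjusted p = 0.0101) at an offset of 0.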
